A study of Mus musculus with 12 samples.

Results

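The guide strand of miR-31, listed on the array as mmu-miR-31, was examined across in vitro osteoclast differentiation. It was chosen by name, with no measured value used, and is 1 of the 696 mouse miRNAs on the array. mmu-miR-31 was detected on 0 of 12 arrays: on 0 of 4 at day 1, 0 of 4 at day 3, and 0 of 4 at day 5. Its signals lay between -129 and 38.4 scanner units, and no comparison of total signal between days differed by more than the spread between cultures. Total signals were positive on 3 of the 4 arrays at day 3 and at day 5. They were at most 0.122 times their error at day 3 and 1.755 times at day 5, under the detection threshold.

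Osteoclast precursors came from the bone marrow of male C57BL/6 mice aged 6 to 8 weeks. B cells carrying B220/CD45R and T cells carrying CD3 were removed with magnetic beads, and erythrocytes were lysed. All cultures received 30 ng/ml M-CSF, which sustains macrophage precursors, together with 30 ng/ml RANKL, which drives them to become osteoclasts, so that there was no culture without RANKL and no day 0. RNA was collected at days 1, 3, and 5 from 4 independent cultures each, 200 ng per culture was labeled, and each sample was hybridized to 1 single-color array. The cultures were mixed populations, and the sources used here do not give which mice each culture came from. Both day 1 and day 5 arrays shared 1 slide, while those of day 3 were on another, so day 3 and its slide cannot be told apart, whereas day 5 against day 1 is a comparison within a slide. In such bulk RNA, fewer cells of a type and less RNA per cell cannot be told apart.

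Mature miRNAs are short RNAs that guide Argonaute proteins to messenger RNAs, mainly through pairing of the seed at bases 2 to 8. Osteoclasts resorb bone within a sealing zone, a belt of podosomes and actin. miR-31 is known as a regulator of the osteoclast cytoskeleton, and its inhibition has been described to disturb the actin ring and bone resorption of cultured osteoclasts. This is the reason its level in differentiating osteoclasts is of interest.

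The mature strands are shown because the probes can measure only the bases they pair with. The capitals mark the seed, bases 2 to 8 from the 5′ end. Sequences and positions are from RefSeq on mouse build GRCm38.p6, where miR-31-5p, the strand named mmu-miR-31 on this array, lies at chr4:88910614-88910635 on the minus strand, and miR-31-3p, named mmu-miR-31* on the array, at chr4:88910577-88910599.
miR-31-5p: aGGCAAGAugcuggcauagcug
miR-31-3p: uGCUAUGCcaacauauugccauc
Among 1679 mature miRNA names of the RefSeq table, each of these seeds belonged to 1 name, its own. miR-31 therefore has no family member with the same seed in that table.

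The precursor hairpin, with both mature strands in capitals, shows that they face each other across a short loop. It spans chr4:88910557-88910662 on the minus strand.
Mir31 hairpin: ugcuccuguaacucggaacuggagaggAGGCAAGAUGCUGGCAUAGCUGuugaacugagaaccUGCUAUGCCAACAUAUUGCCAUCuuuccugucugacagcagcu
The hairpin lies inside the bounds of Gm49890, a long noncoding RNA gene at chr4:88909854-88942042. The nearest protein-coding gene toward lower coordinates is Ifne, an interferon gene 30356 bp away, and the nearest toward higher coordinates is Mtap, a gene of methionine salvage 226708 bp away. The nearest other miRNA gene is Mir491, at a distance of 788432 bp, so miR-31 is not part of a miRNA cluster in this annotation.

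Each array carried 20 spots for mmu-miR-31, 10 for each of 2 probes, and the probe sequences are shown because they differ by 1 base at the end that reaches into the seed.
16-base probe: cagctatgccagcatc
17-base probe: cagctatgccagcatct
The first pairs with bases 7 to 22 of the mature strand and the second with bases 6 to 22. Either probe matched 1 mature name of the 1679, so neither had a second perfect target there. Their GC contents were 56.2% and 52.9%.

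The software that read the arrays called a miRNA detected where at least 1 of its probes had a total probe signal above 3 times the error of that signal. This rule, recovered from the files, held for all 696 miRNAs on every one of the 12 arrays. To be detected, a miR-31 probe would have needed between 46.1 and 181 scanner units, depending on the array. The highest value reached was 27.9 units, 1.78 times its error, for the 17-base probe at day 5 replicate 2. The next highest was 22.9 units, 1.47 times its error, for the same probe at day 5 replicate 1. At days 1 and 3 no probe exceeded 0.244 times its error.

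**Figure D1:**
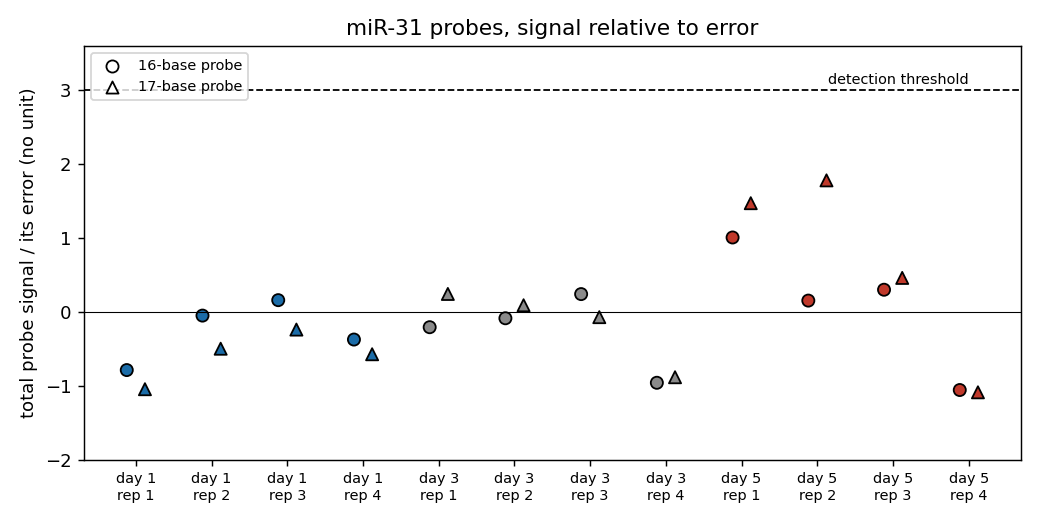
Total probe signal of mmu-miR-31 divided by its own error (no unit, y axis) on the 12 arrays (x axis), with circles for the 16-base and triangles for the 17-base probe, and the detection threshold of 3 dashed. All 24 points lie under the threshold, the highest at 1.78.

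The total signal, which sums both probes after background subtraction and can fall below 0, gave the level of miR-31 in scanner units. At day 1 it was -64.5, -8.86, -1.80, and -20.3 in replicates 1 to 4, a mean of -23.9 ± 28.2 (SD, n = 4). At day 3 it was 0.747, 0.139, 3.28, and -54.1, a mean of -12.5 ± 27.8 (SD, n = 4). At day 5 it was 38.4, 30.3, 12.9, and -129, a mean of -11.9 ± 78.9 (SD, n = 4). All values of day 1 were negative, 3 of 4 at day 3 and 3 of 4 at day 5 were positive, and the lowest value of all was the remaining array of day 5, so the groups overlapped. The ordering of the means, day 1 under day 3 under day 5, involved no neighbors that differed beyond their spread.

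Day 5 minus day 1 was 11.9 scanner units (exact permutation test, two-sided, p = 0.8, n = 4 each). Day 3 minus day 1 was 11.4 units (exact p = 0.457), and day 5 minus day 3 was 0.561 units (exact p = 1). Adjusted over these 3 comparisons by the Benjamini-Hochberg method, every p was 1. The smallest p this design allows is 0.0286. An exact permutation test across the 3 days, over all 34650 arrangements of the arrays, gave p = 0.95. A difference between days was thus not detectable at this signal, which does not show that the level stayed the same. No fold change is given, since miR-31 was below detection in all groups.

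The day 5 differences depended strongly on replicate 4 of day 5. That array had the fewest detected miRNAs, 186 against 211 to 276 on the others. Its miRNAs detected on no array had the lowest median after background subtraction, -85.3 units. It was not a dim array, since the median signal of its detected miRNAs, 1253 units, was the highest of all arrays. Without it, day 5 minus day 1 was 51.0 units and day 5 minus day 3 was 39.7 units. The exact p for either was 0.0571, the smallest that 3 arrays against 4 can give. Arrays of other days weighed on the differences too. Without day 3 replicate 4, day 3 minus day 1 was 25.2 units with the same exact p of 0.0571, and day 5 minus day 3 was -13.3 units. Without day 1 replicate 1, day 5 minus day 1 was -1.61 units.

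The background level left after subtraction was read from the 362 miRNAs, 52.0% of the 696, that were detected on no array. Their median was between -85.3 and -3.44 units, with the lowest at day 5 replicate 4. Relative to this median, miR-31 stood at -30.6, -5.42, 8.50, and -9.83 units at day 1, at 9.58, 13.6, 13.7, and -27.1 at day 3, and at 44.0, 37.0, 23.0, and -43.9 at day 5. In terms of rank, miR-31 was above 22.9% to 62.4% of the never-detected miRNAs at day 1 and above 21.0% to 77.6% at day 3. At day 5 it was above 96.1%, 97.0%, and 85.1% of them in replicates 1 to 3, and above 29.0% in replicate 4. The positive deviation of replicates 1 to 3 was thus near the upper edge of the undetected background, and replicate 4 did not share it. After this correction the day 5 minus day 1 difference was 24.3 units (exact permutation test, p = 0.314, adjusted p = 0.471), the day 3 minus day 1 difference was 11.8 units (exact p = 0.314, adjusted p = 0.471), and the day 5 minus day 3 difference was 12.6 units (exact p = 0.543, adjusted p = 0.543). Without day 5 replicate 4 the differences of day 5 from days 1 and 3 were 44.0 and 32.2 units, each with the smallest exact p that 3 arrays against 4 allow, 0.0571.

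**Figure D2:**
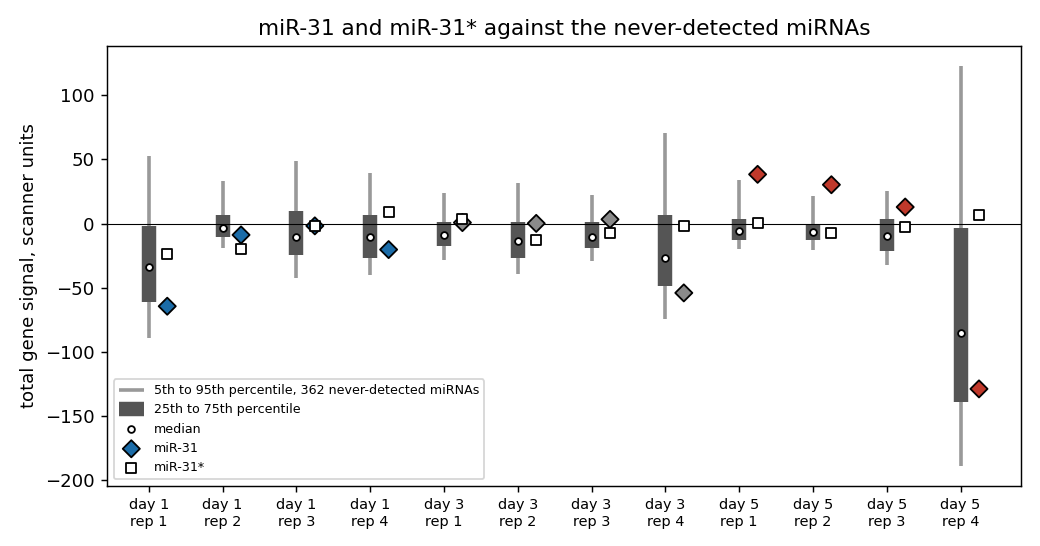
Total signal in scanner units (y axis) on the 12 arrays (x axis) of miR-31 (diamonds, colored by day) and miR-31* (open squares), beside the 362 never-detected miRNAs (thin line 5th to 95th percentile, thick line 25th to 75th, dot the median). miR-31 lies above the thin line at day 5 replicates 1 and 2, at 38.4 and 30.3 units, and within it on the other arrays.

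Because it was detected on no array, mmu-miR-31 did not enter the main fit, which holds the 334 miRNAs with at least 1 detection, and its row in the normalized table of the authors is empty. In a limma fit of all 696 miRNAs, in which 24% passed an adjusted p of 0.01 for day 5 against day 1, its values were set to a floor of 1 unit before the log2. On that scale all arrays of day 1 were at 0, those of day 3 were at 0, 0, 1.05, and 0, and those of day 5 were at 5.33, 5.43, 3.62, and 0. miR-31 did not pass in this fit (limma, adjusted p = 0.0236 for day 5 against day 1, 0.0681 for day 5 against day 3, and 1 for day 3 against day 1). Without replicate 4 of day 5 it passed for day 5 against day 1 (limma, adjusted p = 0.000217) and for day 5 against day 3 (adjusted p = 0.00368). The result of the fit therefore rested on 1 array, and most of the values entering it were at the floor, where they have no order. All values of day 1 were among these, so no p of this fit measures the spread between the cultures of day 1.

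Single spots were read as well. Of the 240 spots over the 12 arrays, 134 (55.8%) were negative after background subtraction, and these were 70.0% of the spots at day 1, 58.8% at day 3, and 38.8% at day 5. Spots of 1 array share their sample and are not replicates, so these shares carry no test. The spots were pooled without subtracting the background median of each array. That median was -33.9 to -3.44 units at day 1 and -85.3 to -5.62 at day 5. The part of single arrays in these shares and in the medians that follow was not tested. The median of the spots not marked as outliers was -23.2 units at day 1, -7.46 at day 3, and 12.6 at day 5.

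A single spot of the 240 was marked well above background, a spot of the 17-base probe at day 1 replicate 2 with 19134 units. It was marked both as non-uniform and as an outlier among its replicate spots. It does not enter the total signal of that array, which was -8.86 units. Among the spots not marked as outliers the highest had 77.6 units, none was well above background, and no spot was saturated.

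**Figure D3:**
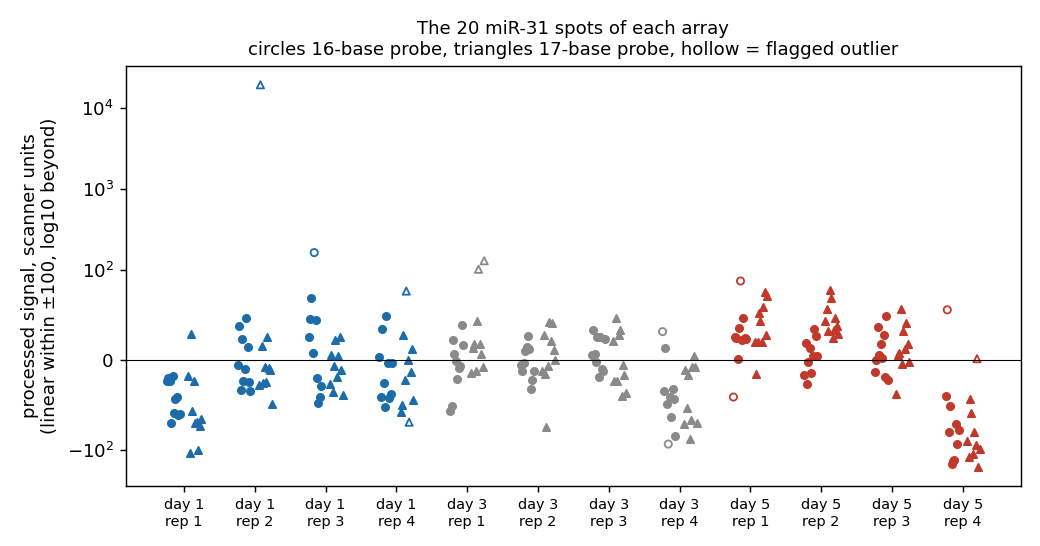
Processed signal in scanner units (y axis, linear within 100 units of 0 and logarithmic beyond) of the 20 miR-31 spots of each array (x axis), circles for the 16-base and triangles for the 17-base probe, hollow where marked as outlier. The hollow triangle at 19134 units at day 1 replicate 2 stands alone, and the unmarked spots reach at most 77.6 units.

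The opposite strand, mmu-miR-31*, was also detected on 0 of 12 arrays. Its mean total signal was -9.03 ± 15.2 units at day 1, -4.58 ± 7.23 at day 3, and -0.889 ± 5.93 at day 5 (SD, n = 4 each). At day 5 replicates 1 to 3, where miR-31 was above the background median by 23.0 units or more, miR-31* stood 6.05, -1.01, and 7.30 units from it. At day 5 replicate 4 miR-31* was 91.8 units above the median and miR-31 was at -43.9 units from it. The errors of these total signals were 85.4 and 85.3 units. Both signals lay between the 5th and 95th percentile of the never-detected miRNAs on that array, -189 and 123 units. No level of either strand could be set against the other, since both were below detection.

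Other miRNAs that have been studied in osteoclasts were measured on the same arrays, so that the missing call of miR-31 can be placed among them. Of a list of 15 such miRNAs, chosen with earlier results of these data known, 10 were detected on all 12 arrays and 14 on at least 1. Of all 696 miRNAs, 148 (21.3%) were detected on all 12 arrays and 334 (48.0%) on at least 1. The exception was mmu-miR-124, known for targeting NFATc1, the main transcription factor of osteoclastogenesis. Detection of 4 members differed by day. mmu-miR-183 was detected on 0, 4, and 4 of the 4 arrays at days 1, 3, and 5, mmu-miR-155 and mmu-miR-503 each on 4, 0, and 3, and mmu-miR-214 on 1, 0, and 3. On the array with the fewest detections, day 5 replicate 4, the last 3 of these were the missing ones.

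From day 1 to day 5, 11 of the 14 tested members passed the limma test at an adjusted p of 0.01, 8 higher and 3 lower. The 8 include mmu-miR-183, which entered the test only through days 3 and 5. Over all 334 tested miRNAs, 31.7% passed as higher and 29% as lower. The median difference of the members was 0.95 on the log2 scale, and that of all tested miRNAs was 0.11. All 3 members of the miR-29 family, known for acting on genes of precursor commitment and migration, were higher at day 5. mmu-miR-29b was 1.90 ± 0.15 higher (log2 difference ± SE, limma adjusted p = 1.13e-06). mmu-miR-29a and mmu-miR-29c were higher by 0.95 ± 0.07 each (adjusted p = 7.44e-07 and 5.18e-07). Within each of the 3, the 4 arrays of day 5 lay above the 4 arrays of day 1.

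The others that were higher include regulators described as brakes on osteoclast formation. mmu-miR-34a, known for targeting Tgif2, was 1.00 ± 0.12 higher at day 5 on the log2 scale (limma adjusted p = 2.52e-05). mmu-miR-146a, which targets the signaling adaptor TRAF6, was 1.16 ± 0.20 higher (adjusted p = 0.000343), and mmu-miR-125a-5p 1.92 ± 0.27 higher (adjusted p = 7.5e-05). The difference of mmu-miR-125a-5p was 1.12 with normexp background correction and 4.29 on the values deposited by the authors. The normalized log2 values of miR-146a were 11.6 to 11.9 at day 1, 11.7 to 11.8 at day 3, and 12.5 to 13.4 at day 5, so that the days 1 and 3 overlapped and day 5 stood apart.

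mmu-miR-183 and mmu-miR-214 were also higher, from a day 1 level that was mostly or wholly below detection. Total signals of mmu-miR-183 were -52.5, 6.34, -29.1, and 2.84 units at day 1, 294, 296, 289, and 312 at day 3, and 497, 428, 459, and 383 at day 5. Those of mmu-miR-214 were -10.6, 82.1, 50.6, and 16.4 at day 1, 64.7, 52.9, 51.2, and 40.7 at day 3, and 557, 515, 378, and 245 at day 5. Both were called higher, but mmu-miR-183 entered the test only through days 3 and 5 and all of its day 1 values were at the floor, so its p is not given. mmu-miR-214 passed with a limma adjusted p of 0.000719. With normexp their log2 differences were 1.71 and 1.32, and no fold is given because the day 1 values have no measured floor.

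The 3 members lower at day 5 were mmu-miR-148a, mmu-miR-155, and mmu-miR-223. mmu-miR-155, known for repressing MITF, had total signals of 360, 284, 391, and 212 units at day 1, 39.4, 27.4, 40.3, and 20.1 at day 3, and 129, 107, 133, and 16.4 at day 5. The 4 arrays of day 1 were the highest, day 5 replicates 1 to 3 came next, and the arrays of day 3 and day 5 replicate 4, on none of which it was detected, were the lowest. On the normalized log2 scale it fell by 1.05 from day 1 to day 5 (SE 0.25, limma adjusted p = 0.00368). That call was lost under 7 of the alternatives, with adjusted p from 0.0103 to 0.127. Its difference was -0.40 with normexp and -2.04 when scaled by the 75th percentile of the always-detected miRNAs. mmu-miR-223, abundant in myeloid cells, was saturated at all 20 spots on the 4 arrays of day 1 and at 1 to 5 spots on those of day 5, so its day 1 level is only a lower bound. On the quantile normalized scale it was 1.35-fold lower at day 5 (limma adjusted p = 2.28e-05). That scale gave its day 3 and day 5 arrays the same values, 15.869 or 15.904. The total signals were 39500 to 47700 units at day 3 and 55500 to 62800 at day 5. The fold is therefore no bound, and the p does not measure the spread between cultures. The call was lost under 2 scalings, with limma adjusted p of 0.256 and 0.265. mmu-miR-21 was saturated at 11 or more spots on every array, so its days cannot be compared. mmu-miR-148a fell by 0.43 (SE 0.07, adjusted p = 0.000177), and its difference reached -1.03 when scaled by the 75th percentile of the always-detected miRNAs.

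**Figure D4:**
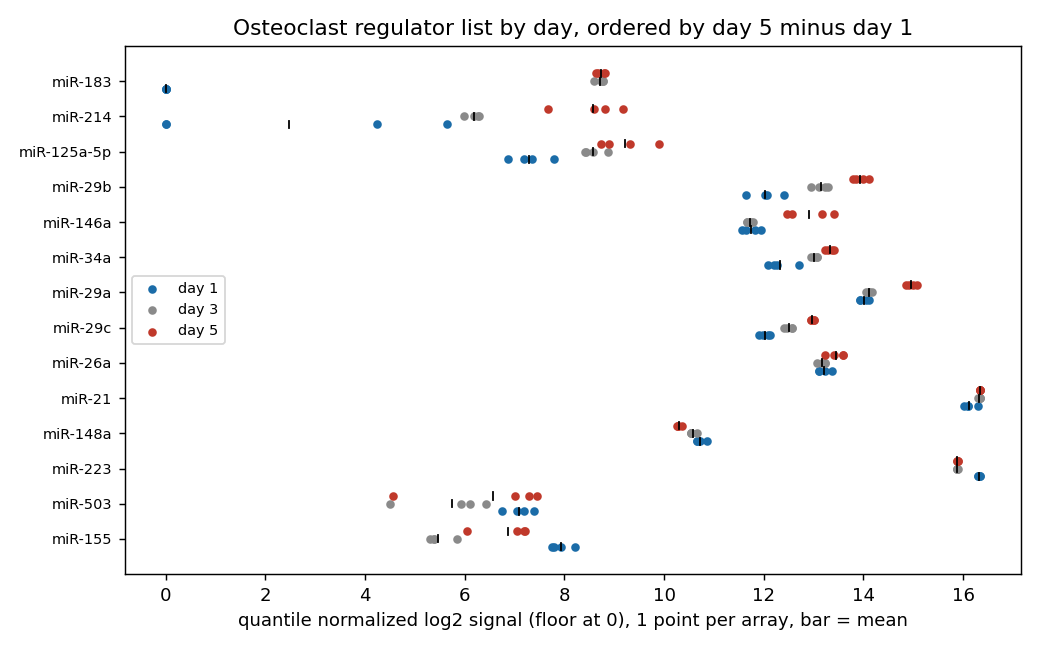
Quantile normalized log2 signal (x axis) of the 14 tested members of the osteoclast list (y axis), 1 point per array colored by day, with the mean of each day as a bar and values under the floor drawn at 0. The 3 members of the miR-29 family had all day 5 arrays above all day 1 arrays.

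Osteoclasts are defined by messenger RNAs and proteins that this array does not measure, so the cell type could be checked only through miRNAs. All 4 myeloid miRNAs (mmu-miR-223, mmu-miR-142-3p, mmu-miR-142-5p, and mmu-miR-21) were detected on all 12 arrays. Summed total signals of erythroid miRNAs (mmu-miR-451 and mmu-miR-144) were 29020 to 57393 units at day 1 and 124 to 295 at day 5. Those of 5 stromal miRNAs were 494 to 896 at day 1, 403 to 529 at day 3, and 2432 to 3545 at day 5. The lymphoid sum of 3 miRNAs was 2471 to 3336 at day 1 and 1594 to 2026 at day 5, and the megakaryocytic and endothelial sum of 2 was 616 to 1384 at day 1 and 0 to 40.1 at day 5. Members did not all move with their sum. Stromal mmu-miR-143, mmu-miR-199a-3p, mmu-miR-199a-5p, and mmu-miR-214 were higher at day 5, but mmu-miR-145 differed by -0.127 (log2, limma adjusted p = 0.918). Lymphoid mmu-miR-181a was lower (log2 -0.799, limma adjusted p = 0.000641). The difference was -3.081 for mmu-miR-150 (adjusted p = 0.067) and 0.452 for mmu-miR-181b (adjusted p = 0.0101), and neither passed 0.01. The sums moved with the days, and their part in the day 5 against day 1 results of the osteoclast list, of which mmu-miR-214 is also a stromal marker, was not tested. The median of all tested miRNAs depended on the scaling, from 0.11 under quantile normalization to -0.51 when each array was scaled by the 75th percentile of its always-detected miRNAs. The 8 members called higher kept that call under every alternative in which they were tested. For mmu-miR-183 this adds nothing, because its day 1 values were at the floor and it was tested only through days 3 and 5.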

How the data were processed

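Small RNA was measured on 12 single-color Agilent mouse miRNA arrays (miRBase release 15), 4 independent cultures at each of days 1, 3, and 5. The scanner files deposited by the authors, written by Feature Extraction 9.5.3.1, hold intensity values that are background subtracted, linear, and not normalized between arrays. A second table deposited by the authors gives log2 values, quantile normalized in GeneSpring and empty where a miRNA was not detected. miR-31 was selected by its name on the array, and its total signal, total error, detection mark, probe totals, and spots were read from the scanner files. Total signals of the days were set against each other by exact permutation (two-sided, 4 arrays against 4). The main model took the 334 miRNAs with at least 1 detection, quantile normalized their total signals, set a floor of 1, took log2, and fitted 1 mean per day with limma 3.58.1 in R 4.3.3, with Benjamini-Hochberg adjustment over all tested miRNAs and a threshold of 0.01. The main model alone was tried on simulated data with known changes. That trial did not cover the unfiltered fit or the permutation tests used for miR-31.

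miR-31 is absent from that model, so its log2 values come from the same fit without the filter. The planned search for miRNAs of nearest pattern and the planned ratios to mmu-miR-21, mmu-miR-34a, mmu-miR-155, and mmu-miR-223 were not made, because miR-31 was detected on no array. Named miRNAs were, by rule, miR-31, its opposite strand, and members of the osteoclast and marker lists. A further list is not reported here. Members and lists were chosen with earlier results of these data known. The sources used here do not say whether arrays with the same replicate number share a source, and the main model did not pair them. Precision is limited by the number of arrays. The marker mmu-miR-486 had no entry under its own name and was not used.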

Additional observations from a re-analysis of the deposited data

Results flagged for a closer look

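Among 57 sets of 4 arrays examined, 10 held an array whose gap to its nearest neighbor, as a share of the whole range, was above the critical value of the Dixon test for 4 samples. Chance gives about 1 in 20. For the total signal of miR-31 the gap was 0.945 at day 3 and 0.848 at day 5, with replicate 4 the low array both times (-54.1 and -129 units). After subtraction of the background median the gap at day 3 was 0.899. The background median itself had a gap of 0.944 at day 5, again from replicate 4 at -85.3 units.

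In normalized log2 values of the osteoclast list, mmu-miR-155 had gaps of 0.854 at day 3 (replicate 3 high) and 0.854 at day 5 (replicate 4 low), and mmu-miR-503 a gap of 0.85 at day 5 (replicate 4 low). mmu-miR-21, mmu-miR-148a, and mmu-miR-223 each had a gap of 1 at day 3, where 3 of the 4 arrays held the same normalized value. mmu-miR-21 was saturated on all of these arrays.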

How the results depend on the processing

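No p for the total signal of miR-31 was below 0.05 in the main comparison, after subtraction of the background median, with the median over spots, or with each probe alone, alternatives chosen after the data were seen. With an array left out, p cannot fall below 0.0571, so those values speak to size and sign alone. The sign was not stable. With the 16-base probe alone, day 5 minus day 1 was -1.97 units and day 5 minus day 3 was -2.83. Leaving out each array gave -4.82 to 51.0 units for day 5 minus day 1, -2.17 to 25.2 for day 3 minus day 1, and -16.2 to 39.7 for day 5 minus day 3. The low end of each range came without day 5 replicate 1, day 1 replicate 1, and day 5 replicate 1, and the high end without day 5 replicate 4, day 3 replicate 4, and day 5 replicate 4.

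In the unfiltered log2 fit, leaving out each array gave 3.02 to 4.86 for day 5 minus day 1, 0 to 0.35 for day 3 minus day 1, and 2.76 to 3.63 for day 5 minus day 3, where only leaving out day 5 replicate 4 brought the adjusted p under 0.01. The adjusted p over the 3 days was 0.0369, and 0.000577 to 0.116 with each array left out. The one-way analysis of variance named in the methods was run here without their detection filter. Its p after adjustment over all mouse miRNAs, 0.0444, did not pass 0.01 either, but the methods state no such adjustment. The log2 differences of the unfiltered fit depend on the floor (3.59 at a floor of 1, 6.09 at 0.1, 0.28 with normexp) and are no fold changes. Settings that keep a detection filter, and the authors' normalized values, give no value for miR-31. Ratios of miR-31 to other miRNAs were not computed. Same-numbered arrays had correlated deviations in some pairs only (-0.435 to 0.699 over 12 pairs). With the replicate block the log2 difference was 3.59 (adjusted p = 0.0376), and 11 osteoclast list members passed.

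The osteoclast count was 11 of 14 in the main fit, where 203 of all 334 tested miRNAs passed. With each array left out it was 10 to 11. The lowest count, 8, came from 10 tested members on the authors' values, where 130 of 202 miRNAs passed. The highest, 13 of 14, came from the looser threshold of 0.05. These counts thus differ in threshold or in members tested. Of single members, mmu-miR-21, saturated on every array, turned to -0.014 when scaled by the 75th percentile of the always-detected miRNAs and to -0.005 without normalization, and mmu-miR-503 was -0.82 to 0.15 with each array left out, positive only without day 5 replicate 4; none of these was called. Without normalization 38.7% of the calls over all miRNAs were higher, and 38.9% with the 75th percentile scaling just named, against 52.2%. Signal over background limits every statement on miR-31.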
